A study of Mus musculus with 18 samples.

Results

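The Paneth cells that came through the GFP gate of the Lgr5+ sort are described here. They were the 530 of 25204 kept barcodes (a barcode marks the droplet of 1 cell) in which the features of the alpha-defensin family (symbols starting with Defa) made up at least 10% of the UMIs and lysozyme (Lyz1) had at least 3 UMIs. A UMI is a molecular identifier that counts each captured RNA molecule once. Kept barcodes had 1000 to 18000 UMIs, 200 to 4000 genes and under 5% mitochondrial UMIs. The members were therefore selected on measured RNA levels, and their defensin and Lyz1 levels are given as a description without a test.

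Paneth cells sit at the base of the small-intestinal crypt between the Lgr5+ stem cells. They pack antimicrobial proteins such as alpha-defensins, lysozyme and lectins into large secretory granules, and Mmp7 (matrilysin) cuts the pro-defensins into their active form. They also carry Wnt and Notch ligands that act on the neighbouring stem cells.

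The ileal crypt cells came from C57Bl6 mice aged 60 to 65 days that received a single intraperitoneal dose of 70 mg/kg tamoxifen and were sampled after 5 days. The WT group was Lgr5-GFP-CreERT2 and the Setdb1-KO group was Lgr5-GFP-CreERT2/Setdb1lox/lox, with 2 libraries each, so that WT and Setdb1-KO mice alike carried the Cre knock-in and received tamoxifen. Cre is expressed from Lgr5, the knock-in allele is mosaic, and whether animals were pooled for a library is not given in the sources used here. The study states that mature cells without GFP co-purified through the gate. The GFP feature had 1 UMI in 1 WT Paneth barcode and none in the other 3 libraries, where a count of 0 allows up to 3 UMIs per library. It was scarce in the kept barcodes with under 5% defensin UMIs too, found in 0.301% and 0.335% in WT and 0.321% and 0.146% in Setdb1-KO. The feature therefore cannot tell whether the Paneth cells carried GFP. A lineage-traced sort of both genotypes, with 2784 of 17665 kept barcodes meeting the same rule, is used only for comparison. The traced mice also carried the nTnG reporter in the ROSA locus, so reporter, sort and experiment cannot be told apart in comparisons with them.

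The WT libraries held 75 and 95 Paneth barcodes, and the Setdb1-KO libraries held 39 and 321. These barcodes carried 590427 and 755413 UMIs in WT and 371472 and 3174513 UMIs in Setdb1-KO, so that Setdb1-KO replicate 2 gave most of the members and of the molecules. Pairs of Lgr5+ libraries shared 3 to 24 kept barcode sequences, and none of these was a Paneth barcode in both. Barcodes with high doublet scores (Scrublet) numbered 0 and 1 among the WT members and 0 and 11 among the Setdb1-KO members. At the edge of the rule, the members nearest to 10% defensin UMIs had between 10.0% and 10.4% in the 4 libraries, and the barcodes just outside had between 8.42% and 9.95%.

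Marker genes that the rule did not use were those of the labelled cell type, with goblet cell RNA also present. All 6 such Paneth markers were detected, and their summed level in counts per 1000000 UMIs (CPM) was 75753 to 93964 CPM in the Paneth barcodes against 531 to 1001 CPM in the other kept barcodes with under 5% defensin UMIs. The most abundant was the defensin-like AY761184, at 47974 to 60027 CPM, so the sum is not independent of a choice by defensins. Itln1, a lectin among these markers, stood at 23162 to 31070 CPM against 195 to 329 CPM. Summed goblet markers reached 7515 to 14634 CPM in 3 of the libraries and 39941 CPM in Setdb1-KO replicate 1, against 12436 to 18592 CPM in the other barcodes. Zg16, a secreted goblet cell lectin, had 7222 UMIs in the Paneth barcodes of that library, 4152 of them in 1 barcode. The other goblet markers made up the rest of that sum. Enterocyte markers summed to 334 to 791 CPM, stem cell markers to 617 to 1487 CPM and proliferation markers to 137 to 420 CPM, in each class below the lowest level in the other barcodes. Of the T cell markers, Cd3e, Cd3g and Cd8a had no UMI in any Paneth barcode.

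The promoters of 2 defensin genes and of Mptx2 are shown because defensins chose the members and Mptx2, a pentraxin, was the granule product that passed the test between genotypes. Each line gives the 250 bases before the annotated start of the gene, from RefSeq on GRCm38.p6 and in the direction of transcription, with the motifs ATCAAAG and TATAAA (searched on both strands, without overlap between them) in capitals. The first motif is the core that Tcf and Lef factors are known to bind.
Defa30, chr8:21134400-21134649, plus strand: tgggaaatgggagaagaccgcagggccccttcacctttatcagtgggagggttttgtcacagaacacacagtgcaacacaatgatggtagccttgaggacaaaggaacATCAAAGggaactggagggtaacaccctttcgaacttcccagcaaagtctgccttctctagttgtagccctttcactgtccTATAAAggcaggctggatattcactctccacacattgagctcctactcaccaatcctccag
Defa21, chr8:21025295-21025544, plus strand: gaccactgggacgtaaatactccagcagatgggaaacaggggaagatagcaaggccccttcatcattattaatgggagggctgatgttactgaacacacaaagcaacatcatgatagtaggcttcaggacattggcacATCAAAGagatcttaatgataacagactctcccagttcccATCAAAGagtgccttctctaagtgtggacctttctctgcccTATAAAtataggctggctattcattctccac
Mptx2, chr1:173277757-173278006, minus strand: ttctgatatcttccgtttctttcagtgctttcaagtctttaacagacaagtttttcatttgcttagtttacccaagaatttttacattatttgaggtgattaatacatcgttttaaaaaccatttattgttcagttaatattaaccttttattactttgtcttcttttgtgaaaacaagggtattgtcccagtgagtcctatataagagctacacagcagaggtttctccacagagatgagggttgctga
The Defa30 window held ATCAAAG once, with its first base 142 bases before the start, and the Defa21 window held it at 112 and 72 bases. The window of Defa22 (chr8:21162027-21162276) had the same base as that of Defa21 at 250 of 250 positions. ATCAAAG occurred in 3.21% and TATAAA in 12.4% of the 32851 promoters of the table, and neither was in the Mptx2 window. The windows of Lyz1 and Itln1, not shown, held neither motif, so this lack is not particular to Mptx2. The sequences are a description of these windows and no binding was measured.

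The defensin transcripts were dominated by few genes. Defensin features made up 38.3% and 32.7% of all Paneth UMIs in WT and 37.1% and 50.8% in Setdb1-KO, against 0.205% to 0.519% in the other barcodes. The empty droplets, which hold free RNA, had 4.07% and 4.53% in WT and 8.41% and 7.79% in Setdb1-KO. Defa24 alone gave 67.5% and 80.4% of the defensin UMIs in WT and 74.8% and 62.6% in Setdb1-KO. Defa30 followed with 22.7% and 12.3% in WT and 19.4% and 24.9% in Setdb1-KO. The 10 most abundant of the 22 features (Defa24, Defa30, Defa29, Defa22, Defa21, Defa17, Defa36, Defa26, Defa23 and Defa3) together held 99.2% to 99.7% of the defensin UMIs, and Defa33 and Defa37 had none. Lyz1, which cleaves bacterial cell walls, stood at 27555 and 27499 CPM in WT and at 19382 and 24324 CPM in Setdb1-KO.

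Members of the family differ in how far reads can tell them apart. In the GENCODE transcripts on GRCm38, all 211 windows of 90 bases in the last 300 bases of the Defa24 transcript occurred in no other gene, and so did 98.6% of those of Defa30. Defa21 and Defa22 had 61.1% such windows, sharing the rest with each other, and for Defa23 and Defa36 no window was unique. Defa17 and Defa3 had 13.3%, again sharing with each other. Counts of these 6 genes are therefore uncertain. All windows of Mptx2, Itln1, Spink4 and Clps were unique to their gene.

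Outside the rule, the features with the largest ratio to the other barcodes were mostly secreted products, with the exception of Nupr1, a nuclear regulator of transcription. In order of the log2 ratio of mean CPM (with 10 CPM added) they were AY761184, Gm14851, Itln1, Mptx2, Ang4, Gm7861, Clps, Gm15292, Gm15293, Pnliprp2, Mmp7, Rnase1, Reg4, Nupr1 and Habp2, with ratios from 7.20 to 3.07. Gm14851 shared transcript windows with Defa29, Gm15292 with Defa26, and Gm15293 with Defa34 and Defa5, all features that the rule counted. The ratios of these features and of AY761184 are therefore not independent of a choice by defensins. AY761184, a defensin-like product, had 57894 and 50910 CPM in WT and 47974 and 60027 CPM in Setdb1-KO. Itln1, an intestinal lectin that binds microbial sugars, had 28107 and 31070 CPM in WT and 23162 and 27424 CPM in Setdb1-KO. Ang4, a microbicidal ribonuclease, had 2220 and 2188 CPM in WT and 1817 and 1466 CPM in Setdb1-KO. The other barcodes held at most 585 CPM of AY761184, 329 CPM of Itln1 and 34.7 CPM of Ang4. At the other end, the lowest ratios belonged to Fabp1, Gcg, Ghrl, Rbp2, Chgb and Cck, products of enterocytes and of enteroendocrine cells.

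Cells were also compared at 1 depth, with each barcode thinned to 1000 UMIs. Itln1 was detected in 96.0% to 100% of Paneth barcodes per library and in at most 20.5% of the others. For Mmp7 the shares were 61.5% to 93.7% and 3.60% to 8.31%, and for Wnt3, a stem cell niche signal, 2.80% to 8.42% and 0.408% to 0.654%. The goblet marker Muc2 was also more frequent in Paneth barcodes, at 49.3% to 71.6% against 14.5% to 19.0% of the others. The shares of the goblet marker Zg16 overlapped, at 29.3% to 43.6% and 24.4% to 40.6%. Without thinning, Itln1 had a UMI in 98.7% to 100% of Paneth barcodes and in 40.4% to 52.7% of the others, Mmp7 in 94.9% to 100% and 12.4% to 19.9%, and Mki67 in 9.03% to 10.7% and 18.7% to 29.3%. Wnt3 had a UMI in 23.4% to 41.1% of Paneth barcodes and in 1.69% to 4.03% of the others, at median depths of 6914 to 11031 and 4656 to 9393 UMIs. The proliferation marker Mki67 was in 0% to 2.67% of the thinned Paneth barcodes and in 3.49% to 5.97% of the others.

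**Figure D1:**
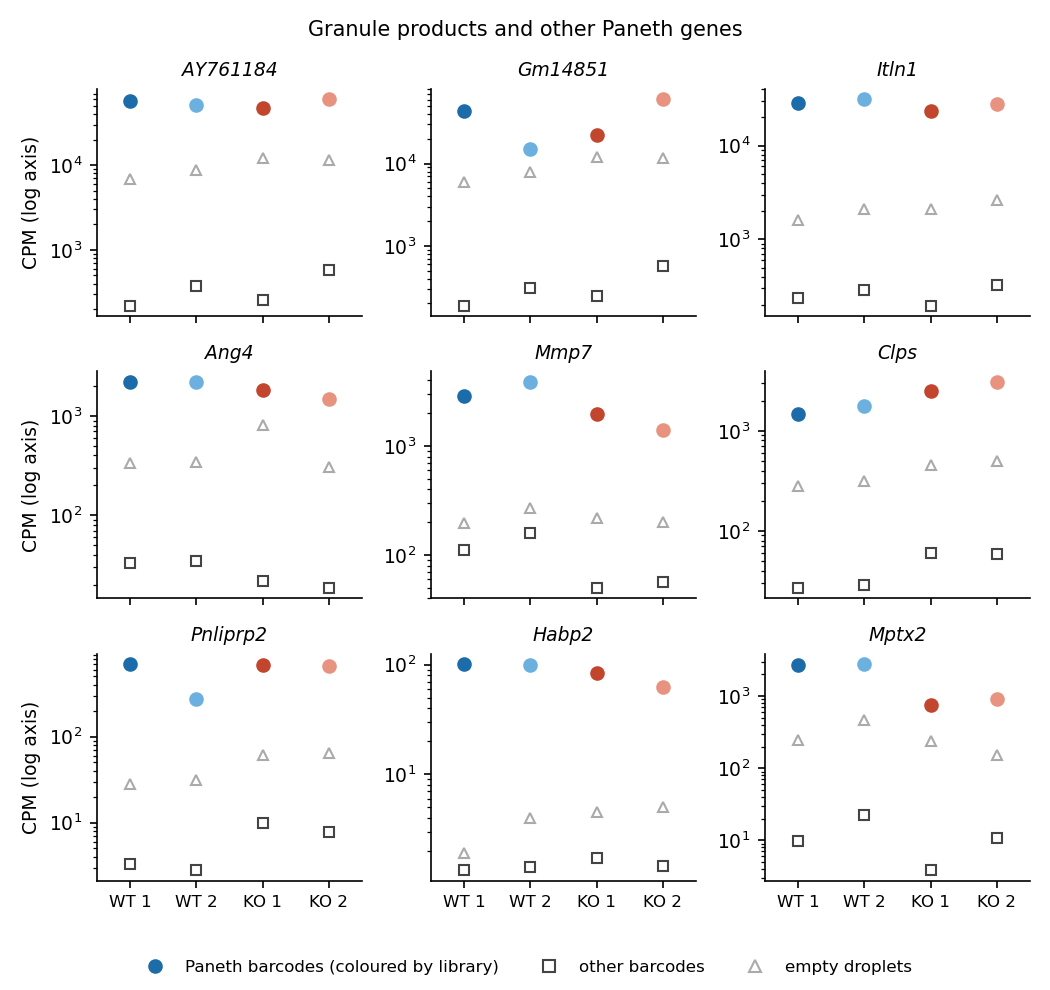
Levels of 9 Paneth genes outside the rule, in CPM on a log axis, in the 2 WT and 2 Setdb1-KO libraries. Filled circles are the summed Paneth barcodes of a library, squares its other kept barcodes and triangles its empty droplets. In each panel the Paneth barcodes lie above the other barcodes and the empty droplets, and for Mptx2 the Setdb1-KO libraries (762 and 912 CPM) lie below the WT libraries (2735 and 2802 CPM).

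The Paneth barcodes were not uniform. Their defensin share ran from 10.0% to 75.3%, and the barcodes with the most defensin RNA differed from those with the least in which secreted products they carried. To set aside the share that defines the bins, levels across these bins were taken as CPM of the UMIs outside the Defa features (non-Defa CPM), summed over the 4 libraries. Clps, a colipase, went from 1129 in the 127 barcodes with 10% to 20% defensin UMIs to 10941 in the 98 with at least 60%. Itln1 went from 15326 to 92194 between the same bins, whereas Spink4, a secreted protease inhibitor also made by goblet cells, went from 80840 to 25235. Mmp7 stood at 3001 and 4375 and Wnt3 at 64.6 and 93.5 in those bins, within 1.5 times of each other. Summed goblet markers stood at 41953, 28371, 8291 and 6193 from the lowest to the highest bin. These bins mix libraries in unequal numbers, with 89 of the 98 barcodes of the highest bin from Setdb1-KO replicate 2.

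One ratio split the barcodes into a low and a high group. Gm14851 is a defensin-like feature outside the rule, and its UMIs were divided by those of Defa24 in each of the 528 members with at least 100 Defa24 UMIs. In 227 barcodes the ratio was below 0.03, in 273 it was 0.1 or more, and 28 lay between. These limits were set after the values were seen, and the groups are ranges of a ratio, described without a test. Low and high barcodes both occurred in each library, but in unlike proportions, with 53.3% and 10.5% high barcodes in WT and 34.2% and 65.6% in Setdb1-KO. The 2 genotypes overlapped, and WT replicate 2 had the fewest high barcodes.

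**Figure D2:**
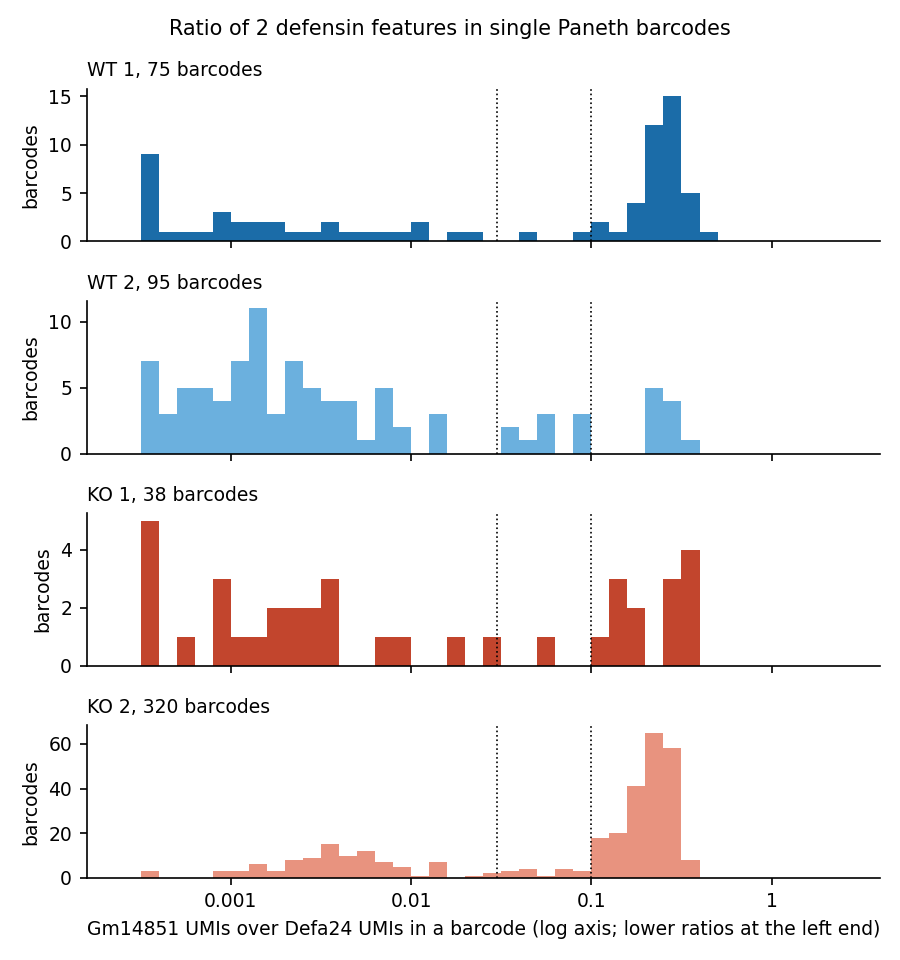
Gm14851 UMIs divided by Defa24 UMIs in single Paneth barcodes, on a log axis, with 1 panel for each library and dotted lines at 0.03 and 0.1. Bars count barcodes. Each library shows a group below 0.03 and a group above 0.1, and WT replicate 2 has 76 low and 10 high barcodes, Setdb1-KO replicate 2 has 94 low and 210 high.

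The low and high barcodes differed in depth as well as in content. The low ones had a median of 5109 UMIs and 1213 genes, and the high ones 12785 UMIs and 1121 genes. The median of Defa30 over Defa24 was 0.0120 in the low and 0.435 in the high barcodes. Spink4 stood at 111476 non-Defa CPM in the low and at 18667 non-Defa CPM in the high barcodes, in the same order in each of the 4 libraries. Summed goblet markers were at 41872 and 7717. Mmp7 stood at 4766 in the low and 2996 in the high barcodes, but its order was not the same in each library, with 7312 and 3113 in WT replicate 1, 6397 and 3390 in WT replicate 2, 3143 and 2852 in Setdb1-KO replicate 1 and 2718 and 2964 in Setdb1-KO replicate 2. The part of depth and of goblet RNA in this split was not tested.

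The first question between genotypes was whether loss of Setdb1 was visible in these cells. Setdb1 had 5 and 3 UMIs in the WT Paneth barcodes and 2 and 5 in the Setdb1-KO ones, or 8.47 and 3.97 CPM against 5.38 and 1.58 CPM. The groups overlapped (exact two-sided permutation test, p = 0.667, where 2 against 2 libraries cannot go below 0.333). They did not overlap at up to 10000 UMIs, with 11.6 and 6.32 CPM in WT and 0 and 1.28 CPM in Setdb1-KO, from 3, 2, 0 and 1 UMIs (a count of 0 allows up to 3 UMIs). Nor did they overlap with the upper limits on UMIs and genes lifted, at 3.99 and 2.54 CPM in WT and 2.49 and 1.93 CPM in Setdb1-KO, from 15, 11, 12 and 18 UMIs. The gene was below the minimum count for the fit, and without that filter its log2 fold change was -0.92 (SE 0.88, edgeR adjusted p = 0.951). In the other barcodes it stood at 11.4 and 10.1 CPM in WT and at 5.27 and 6.49 CPM in Setdb1-KO. The deletion removes exon 3 and the assay reads the 3′ end of transcripts, so the level checks the deletion only indirectly, and neither the permutation test nor the fit called a difference in the Paneth barcodes.

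The share of Paneth barcodes among kept barcodes overlapped between the genotypes under the rule. It was 1.57% (exact 95% confidence interval 1.24 to 1.97) and 1.55% (1.25 to 1.89) in WT, and 1.35% (0.962 to 1.84) and 2.81% (2.52 to 3.13) in Setdb1-KO. The Setdb1-KO libraries lay on either side of WT. The means were 1.56% ± 0.0179 (SD, n = 2) for WT and 2.08% ± 1.03 (SD, n = 2) for Setdb1-KO (exact two-sided permutation test, p = 1). With a defensin share of at least 5% in place of 10%, the means were 2.10% and 3.01% and the genotypes no longer overlapped (exact two-sided permutation test, p = 0.333). The intervals cover counting error only.

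The upper limit on UMIs and genes removed more Paneth barcodes than it left in both WT libraries and in Setdb1-KO replicate 1. In Setdb1-KO replicate 2 it removed fewer than it left. It took out 97 and 122 barcodes in WT and 118 and 251 in Setdb1-KO that met the defensin and Lyz1 conditions. Each of them exceeded 18000 UMIs, with medians of 22838 to 34723 UMIs per library, and their median defensin share was 51.7% to 56.4%. Summed goblet markers in them were at 2325 to 3509 CPM, below the members, and Paneth markers outside the rule at 92246 to 122391 CPM. Enteroendocrine markers in them summed to 40.1 and 16.2 CPM in WT and to 399 and 105 CPM in Setdb1-KO, against 47.4, 42.4, 53.8 and 160 CPM in the members of the same libraries. Enterocyte markers were at 193 and 281 CPM in WT and at 1104 and 410 CPM in Setdb1-KO, against 334, 458, 791 and 537 CPM in the members. Both sums were thus above the members in Setdb1-KO replicate 1 and below them in the other 3 libraries. Tuft cell markers were at 0.632, 1.40, 21.8 and 15.3 CPM, against 32.2, 2.65, 2.69 and 14.5 CPM in the members. With these barcodes counted, the shares became 3.37% and 3.38% in WT and 4.63% and 4.88% in Setdb1-KO. Here too the groups did not overlap (exact two-sided permutation test, p = 0.333, the smallest that this design can give). This count was added after the data had been seen.

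**Figure D3:**
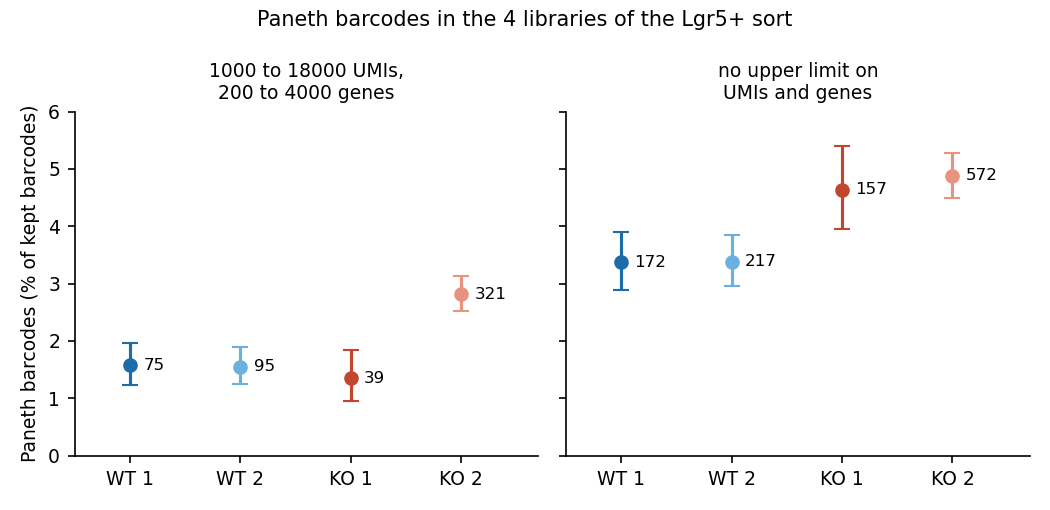
Paneth barcodes in percent of kept barcodes in the 4 libraries, with the limits of 18000 UMIs and 4000 genes at the left and without them at the right. Points are libraries, bars are exact 95% confidence intervals and the numbers are Paneth barcodes. At the left Setdb1-KO replicate 2 stands above the other 3 libraries, and at the right the Setdb1-KO libraries (4.63% and 4.88%) stand above the WT libraries (3.37% and 3.38%).

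Few genes passed the test between Setdb1-KO and WT Paneth barcodes. UMIs were summed per library and tested with edgeR's quasi-likelihood F test with Benjamini-Hochberg adjustment at 0.05. Of the 3779 features outside the rule that were tested, 9 passed (0.238%), with 3 higher (0.0794%) and 6 lower (0.159%) in Setdb1-KO. The lower ones were Mptx2, H2-Aa, H2-Ab1, H2-Eb1, Cd177 and Ceacam10, and the higher ones Rbp2, Fabp1 and Phgr1. At an unadjusted p under 0.05 there were 151 features, and DESeq2 called 2, Ceacam10 and Rbp2. The median log2 fold change over the tested features was 0.02, and in 34.7% of them the 2 WT and 2 Setdb1-KO libraries did not overlap. CPM are per all UMIs of the Paneth barcodes, whereas fold changes also use library scaling factors (0.712 for Setdb1-KO replicate 2 and 1.06 to 1.20 for the others).

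Mptx2, a pentraxin of Paneth granules, was lower in Setdb1-KO. It had 2735 and 2802 CPM in WT and 762 and 912 CPM in Setdb1-KO, from 1615, 2117, 283 and 2896 UMIs. The groups did not overlap, and the log2 fold change was -1.31 (SE 0.29, adjusted p = 0.0422, edgeR). The call was lost without WT replicate 1, WT replicate 2 or Setdb1-KO replicate 1, where the log2 fold change was -1.24, -1.37 and -0.92 and the adjusted p was 1.00, 0.673 and 0.300 (edgeR). It was kept without Setdb1-KO replicate 2, which holds most of the members, at -1.84 (adjusted p = 0.00083, edgeR). DESeq2 gave an adjusted p of 0.219. The adjusted p ranged from 1.2e-10 to 1.00 over the alternatives, and the fold change stayed negative in 18 of 18. It passed in 10 of these 18, and also missed with DESeq2 size factors in edgeR (0.0626), without the filter on low counts (0.126), at a defensin share of at least 5% (0.907) and without barcodes of high Scrublet score (0.0910). The share of Paneth barcodes with an Mptx2 UMI overlapped between the genotypes, at 58.7% and 33.7% in WT and 33.3% and 47.0% in Setdb1-KO, and at 45.3% and 25.3% against 20.5% and 25.9% after thinning to 1000 UMIs. In the other barcodes the thinned share was 0.392% to 2.31%. Single barcodes held up to 227 and 388 Mptx2 UMIs in WT and up to 117 and 171 in Setdb1-KO.

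Mptx2 also varied among the Paneth barcodes. It had UMIs in 14.1% of the low and 71.1% of the high barcodes of the Gm14851 ratio. Among the barcodes with 40% to 60% defensin UMIs it stood at 9173 and 13107 non-Defa CPM in WT and at 1131 and 1907 in Setdb1-KO. Among the high barcodes of the ratio the levels were 6272 and 15833 in WT and 3331 and 2402 in Setdb1-KO, and among the low ones 1734 and 2130 in WT and 21.1 and 407 in Setdb1-KO. In these 3 subsets both Setdb1-KO libraries lay below both WT libraries, from as few as 10 barcodes in a library. The same order held in the bin of 20% to 40%, and in the bins of 10% to 20% and of at least 60% the genotypes overlapped. In the other barcodes Mptx2 was at 3.82 to 22.4 CPM and in the empty droplets at 154 to 459 CPM.

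**Figure D4:**
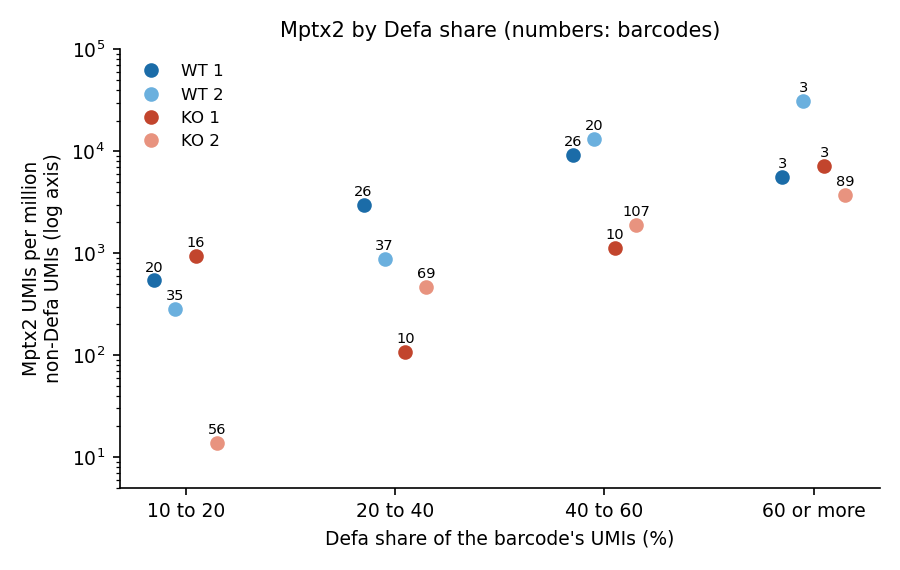
Mptx2 in non-Defa CPM (log axis) in Paneth barcodes grouped by the share of their UMIs that came from Defa features, in percent. Each point is 1 library and the number above it counts its barcodes. In the bin of 40% to 60% the Setdb1-KO libraries (1131 and 1907) lie below the WT libraries (9173 and 13107), and in the lowest and highest bins the genotypes overlap.

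With the barcodes above the upper limits included, 146 of 8302 features passed (1.76%), and Mptx2 differed by -1.59 on the log2 scale (edgeR, adjusted p = 5.4e-08). The smallest adjusted p in that set belonged to Gip and Chga, products of enteroendocrine cells, at 6.11 and 3.66 on the log2 scale. The part of enteroendocrine RNA in the calls of that set was not tested. In the barcodes above the limits alone Mptx2 had 4224 and 5350 CPM in WT and 1568 and 1378 CPM in Setdb1-KO, again without overlap. In the lineage-traced sort, barcodes chosen by the same rule had 2925 and 1712 CPM in WT and 865 and 1034 CPM in Setdb1-KO, a difference of -1.82 on the log2 scale (edgeR, adjusted p = 0.0232), in a comparison where 164 of 7312 features passed (2.24%). The empty droplets of the traced WT libraries had 2894 and 1883 CPM of Mptx2, close to the barcodes themselves. Those of the traced Setdb1-KO libraries had 637 and 498 CPM, and the part of free RNA in the traced difference was not tested. Genotype effects differed between the sorts for 68 of 6648 features (1.02%), and for Mptx2 the difference was 0.56 on the log2 scale (edgeR interaction, adjusted p = 0.999).

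No other granule or antimicrobial product passed in this fit. Of 34 genes in this list 24 were tested, 1 was lower (Mptx2) and none was higher, beside 9 of 3779 features in all (0.238%). An unadjusted p under 0.05 was found for 4 of the 24 and for 151 of the 3779, and DESeq2 called none of the list. The median log2 fold change was 0.21, against 0.02 over all tested features. Clps, the colipase, came nearest, at 1467 and 1778 CPM in WT and 2509 and 3098 CPM in Setdb1-KO (log2 fold change 1.21, SE 0.30, adjusted p = 0.0822, edgeR). Its groups did not overlap, and the same order was seen in the empty droplets, at 281 and 312 CPM in WT and 458 and 499.7 CPM in Setdb1-KO. With the barcodes above the upper limits its log2 fold change was 0.34 (adjusted p = 0.432, edgeR). Clps was called higher with the rule's features left out of the fit, at 10 or more Lyz1 UMIs and at 2000 or more UMIs. Clps passed in the other barcodes (1.07, adjusted p = 0.00118, edgeR). In the traced Paneth barcodes it was -0.97 (adjusted p = 0.649), and the difference between the sorts was 2.22 (edgeR interaction, adjusted p = 0.0222). Mmp7, the defensin-processing protease, had 2906 and 3908 CPM in WT and 1954 and 1412 CPM in Setdb1-KO (log2 fold change -0.67, SE 0.27, adjusted p = 0.998, edgeR). Mmp7 was called lower at up to 10000 UMIs, and Pigr at a defensin share of at least 5%. Itln1 (0.19), Ang4 (-0.08), AY761184 (0.40) and Spink4 (-0.25) had log2 fold changes within 1 SE of 0. The first 3 changed sign with the barcodes above the upper limits, to -0.13, 0.25 and -0.12. With those barcodes 26 genes of the list were tested, beside 146 of 8302 features called in all (1.76%), and Mptx2 and Pigr (-0.85, adjusted p = 1.6e-05, edgeR) were lower and Reg4 (0.60, 0.0287), Fgfbp1 (0.81, 0.00529) and Reg3a (2.53, 0.0102) higher.

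The signals of the stem cell niche were scarce and none passed in this fit. Of 24 genes 8 were tested with edgeR, 1 had an unadjusted p under 0.05, DESeq2 called none, and 7 of the 8 fold changes were negative with a median of -0.45. Over all 3779 tested features 48.1% of the fold changes were negative, and 4% had an unadjusted p under 0.05 (edgeR). Wnt3 had 62.7 and 68.8 CPM in WT and 40.4 and 29.9 CPM in Setdb1-KO (log2 fold change -0.52, SE 0.30, adjusted p = 0.998, edgeR). The values lay apart, but by less than the test requires. Kit, a receptor tyrosine kinase of crypt-base secretory cells, had 33.9 and 54.3 CPM in WT and 24.2 and 8.82 CPM in Setdb1-KO (log2 fold change -1.41, SE 0.39, adjusted p = 0.211, edgeR). It was called lower with a replicate block, at a defensin share of at least 20% and at up to 10000 UMIs. Egf had 3 to 12 UMIs per library and Bst1 none, which allows up to 3 UMIs per library.

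Among 24 secretory lineage transcription factors 16 were tested and none passed, with none at an unadjusted p under 0.05 and none by DESeq2. Their median log2 fold change was -0.15. Bhlha15 (Mist1), a regulator of secretory cells, was at 27.1 and 56.9 CPM in WT and 72.7 and 20.5 CPM in Setdb1-KO, so that the groups overlapped. Sox9, which Paneth cells need to form, was at 54.2 and 105 CPM in WT and 53.8 and 34.0 CPM in Setdb1-KO (log2 fold change -0.54, SE 0.31, adjusted p = 0.998, edgeR). Of 32 genes of the endoplasmic reticulum and the unfolded protein response 27 were tested, none passed in edgeR, none had an unadjusted p under 0.05, DESeq2 called none, and the median log2 fold change was -0.0036. The chaperone Hspa5 had a log2 fold change of 0.04 (SE 0.27). With the barcodes above the upper limits 1 of 30 genes of this list passed, Selenos (0.53, adjusted p = 0.00668, edgeR), beside 146 of 8302 features in all (1.76%).

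The smaller lists gave no call in edgeR or DESeq2. Over all tested features 151 of 3779 (4%) had an unadjusted p under 0.05 in edgeR. For zinc transport and metallothioneins 5 of 10 genes were tested, 1 with an unadjusted p under 0.05. For autophagy and pattern recognition 5 of 16 were tested and none reached that level, and Nod2 had no UMI in any Paneth barcode, which allows up to 3 UMIs per library. For necroptosis and death receptors 3 of 12 were tested, 1 at that level, while Ripk3 had 2 to 14 UMIs and Mlkl 0 to 6 UMIs per library. For the H3K9 methylation machinery 7 of 11 were tested and none reached it, with log2 fold changes from -0.63 (Ehmt1) to 0.12 (Cbx3).

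Among genes of MHC class II, which present peptides to T cells, 3 were lower in Setdb1-KO. Of 7 genes 4 were tested, H2-Aa, H2-Ab1 and H2-Eb1 passed, beside 6 of 3779 features (0.159%) that were lower in all, and DESeq2 called none of the list. The median log2 fold change was -2.02, against 0.02 over all tested features. H2-Aa had 52.5 and 51.6 CPM in WT and 5.38 and 6.62 CPM in Setdb1-KO (log2 fold change -2.44, SE 0.40, adjusted p = 0.0016, edgeR). H2-Eb1 followed with 57.6 and 76.8 CPM in WT and 5.38 and 12.3 CPM in Setdb1-KO (log2 fold change -2.04). For both genes the libraries of the 2 genotypes lay apart. The levels were low, with 2 and 21 UMIs of H2-Aa in the Setdb1-KO Paneth barcodes. Cd74, the invariant chain, had 368 and 408 CPM in WT and 26.9 and 90.1 CPM in Setdb1-KO and did not pass (adjusted p = 0.998, edgeR). This depended on the setting. Cd74 was called lower with a replicate block, without the filter on low counts and at a defensin share of at least 20%. Among the settings that kept all libraries, Cd74 was also called lower at 10 or more Lyz1 UMIs and at up to 10000 UMIs. H2-Ab1 lost its call without WT replicate 1 or 2 (adjusted p = 0.359 and 0.185, edgeR), at a defensin share of at least 20% (0.0541) and without barcodes of high Scrublet score (0.0518), and H2-Eb1 without WT replicate 2 or with the barcodes above the upper limits (0.0569 and 0.383).

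The same order held outside the Paneth cells. H2-Aa had 201 and 120 CPM in the other WT barcodes and 19.1 and 45.6 CPM in the other Setdb1-KO barcodes, and 153, 76.7, 12.3 and 29.6 CPM in the empty droplets. Each level in the Paneth barcodes was below the level in the empty droplets of its library. Fold changes in the other barcodes were -2.27 for H2-Aa and -1.77 for H2-Ab1 on the log2 scale, with adjusted p of 0.329 and 0.310 in edgeR, in a comparison where 319 of 13615 features passed (2.34%). Summed T cell markers in the other barcodes moved in the same direction, at 118 and 71.6 CPM in WT and 17.5 and 12.8 CPM in Setdb1-KO, and were at 0 to 5.30 CPM in the Paneth barcodes. The part of free RNA and of immune cells in the Paneth values was not tested. Of the MHC class I and interferon genes 9 of 20 were tested, none passed in edgeR, and DESeq2 called none. An unadjusted p under 0.05 was found for 1 of the 9, beside 4% of all tested features (edgeR). With the barcodes above the upper limits 15 of these genes were tested, and Ifitm3 (-0.65, adjusted p = 0.00179, edgeR) and Irf1 (-0.90, 0.0168) passed. Of 6 class II genes tested there, H2-DMb1 (-1.20, adjusted p = 0.0396, edgeR), H2-Aa (-1.54, 4.0e-05) and H2-Ab1 (-1.11, 0.00177) passed. Over all features 146 of 8302 passed in that setting (1.76%).

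Ceacam10, a secreted member of the carcinoembryonic antigen family, and Cd177, a surface glycoprotein known from neutrophils, were also lower. Ceacam10 had 81.3 and 143 CPM in WT and 26.9 and 13.5 CPM in Setdb1-KO (log2 fold change -2.27, SE 0.33, adjusted p = 0.00053, edgeR), and it passed under 17 of 17 alternatives that tested it. The other barcodes held 99.8 and 111 CPM in WT and 13.6 and 21.4 CPM in Setdb1-KO. Cd177 had 28.8 and 23.8 CPM in WT and 2.69 and 1.58 CPM in Setdb1-KO (log2 fold change -3.29, SE 0.64, adjusted p = 0.0111, edgeR), from 1 and 5 UMIs in the Setdb1-KO libraries. In the traced sort Ceacam10 had 10.4 and 20.0 CPM in WT and 19.8 and 26.4 CPM in Setdb1-KO Paneth barcodes, and its genotype effect differed between the sorts by -2.45 on the log2 scale (edgeR interaction, adjusted p = 0.00182). Cd177 lost its call without WT replicate 1, WT replicate 2 or Setdb1-KO replicate 2 (adjusted p = 0.969, 0.999 and 0.163, edgeR), and at up to 10000 UMIs (0.0697). In the Lgr5+ sort the genotypes lay apart for both genes in the Paneth barcodes, in the other barcodes and in the empty droplets alike.

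The genes that rose were Rbp2 and Fabp1, known from enterocytes, and Phgr1. Rbp2, which binds retinol, had 23.7 and 25.2 CPM in WT and 78.1 and 126 CPM in Setdb1-KO (log2 fold change 2.62, SE 0.39, adjusted p = 0.0016, edgeR). Fabp1, a fatty acid binding protein, had 16.9 and 50.3 CPM in WT and 96.9 and 76.6 CPM in Setdb1-KO (log2 fold change 1.72, SE 0.34, adjusted p = 0.0150, edgeR). Phgr1 had 310 and 381 CPM in WT and 743 and 461 CPM in Setdb1-KO (log2 fold change 1.12, SE 0.25, adjusted p = 0.0448, edgeR). Of 8 enterocyte markers 4 were tested and 2 rose in edgeR, beside 3 of 3779 features (0.0794%) that were higher in all, and DESeq2 called 1 of them, Rbp2. These levels were below those in the same library's empty droplets, which held 373 and 528 CPM of Rbp2 in WT and 1303 and 846 CPM in Setdb1-KO, and the part of free RNA was not tested. The other barcodes held 455 and 677 CPM of Rbp2 in WT and 2036 and 1096 CPM in Setdb1-KO. For Fabp1 they held 402 and 1078 CPM in WT and 2314 and 872 CPM in Setdb1-KO, with overlap. For neither gene was the genotype effect called different between Paneth and other barcodes. Fabp1 lost its call without WT replicate 1 (adjusted p = 1.00, edgeR), Phgr1 without WT replicate 1 or 2 (1.00 and 0.999), and Rbp2 and Fabp1 with the barcodes above the upper limits (0.312 and 0.603), where their log2 fold changes were larger, at 3.41 and 2.41. Fabp1 also missed the threshold at a defensin share of at least 5% (0.958), and both Fabp1 and Phgr1 did so without barcodes of high Scrublet score (0.0518). Phgr1 passed in 9 of 18 alternatives and missed with DESeq2 size factors (0.0626), without the filter on low counts (0.354), at a defensin share of at least 20% (0.0947) and at up to 10000 UMIs (log2 fold change 0.62, adjusted p = 0.488, edgeR). With the barcodes above the upper limits 6 enterocyte markers were tested, and Sis (2.03, adjusted p = 0.00147, edgeR) and Fabp2 (0.96, 4.2e-05) passed in their place. In that setting 146 of 8302 features passed in all (1.76%). Hist1h2bc (log2 fold change 1.43, adjusted p = 0.0525, edgeR) and Shisa5 (1.89, adjusted p = 0.0822) were the next in this direction and did not pass.

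**Figure D5:**
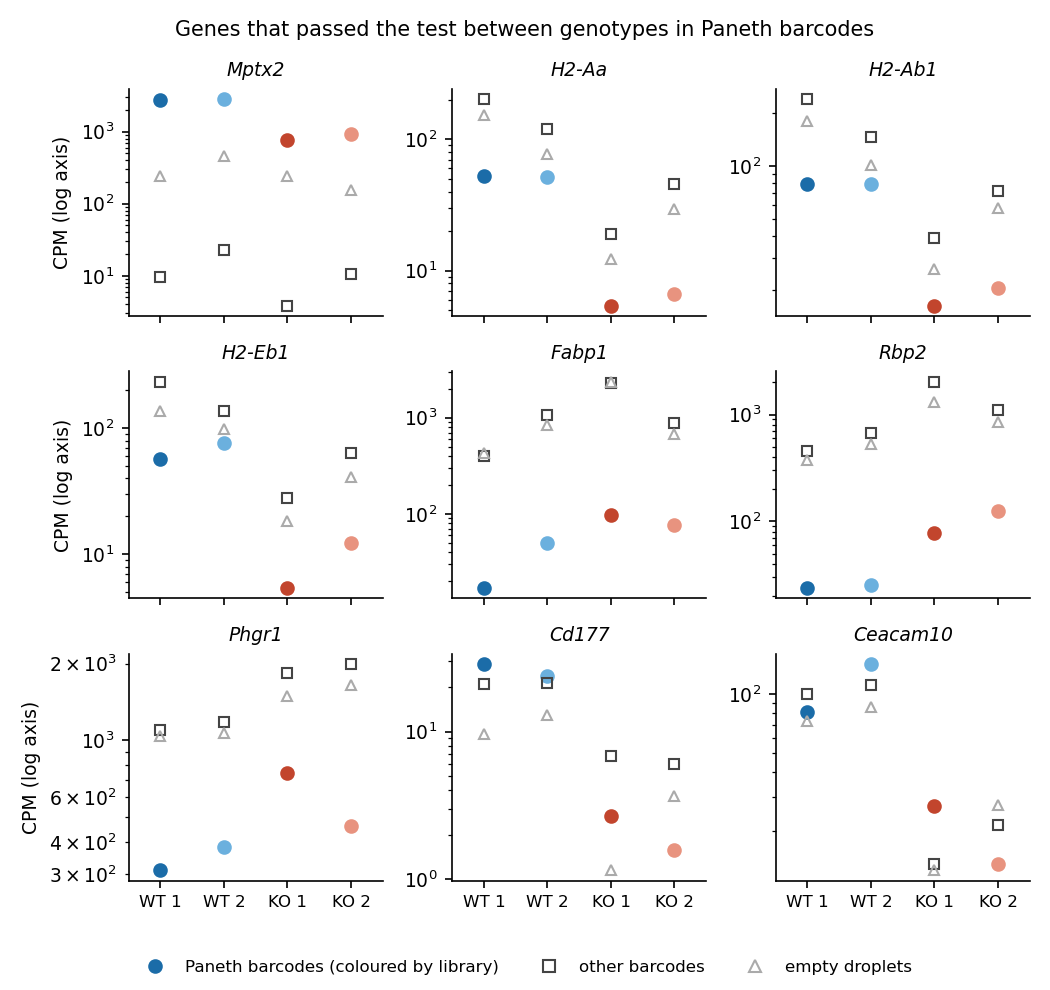
CPM on a log axis of the 9 genes that passed the test between Setdb1-KO and WT Paneth barcodes, in the 2 WT and 2 Setdb1-KO libraries. Filled circles are Paneth barcodes, squares other kept barcodes and triangles empty droplets. Mptx2 is the gene whose Paneth level exceeds that of the other barcodes and of the empty droplets in all 4 libraries, and H2-Aa, H2-Ab1, H2-Eb1, Fabp1, Rbp2 and Phgr1 lie below both in each library.

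The effect of genotype was compared between Paneth and other barcodes of the same libraries by an interaction term in edgeR. Of 12541 features outside the rule 5 differed (0.0399%). The other barcodes mix cell types. Their summed enteroendocrine markers were at 717 and 1126 CPM in WT and 3049 and 1534 CPM in Setdb1-KO. Enterocyte markers were at 2266 and 3173 against 7134 and 3941 CPM, and stem cell markers, in the opposite order, at 3928 and 3537 against 2325 and 1986 CPM. The part of this mixture in the differences was not tested. Reg3b, a bactericidal lectin, had 208 and 210 CPM in WT and 509 and 111 CPM in Setdb1-KO Paneth barcodes, with 169 of the 189 UMIs of Setdb1-KO replicate 1 in 1 barcode. In the other barcodes it had 792 and 1137 CPM in WT and 453 and 405 CPM in Setdb1-KO, and the difference of the log2 fold changes was 1.63 (SE 0.27, adjusted p = 1.8e-05, edgeR). Reg4, a lectin of secretory cells, had 1343 and 1360 CPM in WT and 1887 and 1214 CPM in Setdb1-KO Paneth barcodes, while the others had 30.1 and 44.4 CPM in WT and 135 and 138 CPM in Setdb1-KO (adjusted p = 0.0832, edgeR). Its difference of log2 fold changes was -1.42 (SE 0.24, adjusted p = 3.1e-05, edgeR). Neither call held without WT replicate 1 (adjusted p = 0.253 for Reg3b and 1.00 for Reg4, edgeR) or without WT replicate 2 (1.00 for both), and Reg3b differed by 0.99 without Setdb1-KO replicate 1. Reg4 also lost its call at a defensin share of at least 20% and with the barcodes above the upper limits (adjusted p = 0.518 and 0.746, edgeR). For Mptx2 the difference was -0.24 (adjusted p = 1.00, edgeR), so its change was not shown to differ between Paneth barcodes and the others.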

How the data were processed

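The data were 4 single-cell libraries of the Lgr5+ sort and 4 of the lineage-traced sort, made from ileal crypts with a 10x Genomics 3′ kit. The authors deposited UMI counts per feature and barcode for all barcodes, without normalization, made per the submitters' processing notes with Cell Ranger 6.1.1 on mm10. The Lgr5+ libraries held 50722926 to 81876035 UMIs. Paneth barcodes were chosen as stated in the report. The members and the gene lists were chosen with earlier results of these data known.

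UMIs were summed per library over Paneth barcodes, other barcodes (under 5% defensin UMIs) and empty droplets (1 to 100 UMIs). Sums were filtered by filterByExpr, scaled by TMM and fitted in edgeR 4.0.16 with genotype as the only term, and p-values of the quasi-likelihood F test were adjusted after Benjamini-Hochberg. SE were derived from the fold change and its F value. Interaction terms compared genotype effects between barcode classes and between sorts. DESeq2 1.42.0 was an alternative. The fit was tested on simulated data. The study's methods call the 2 libraries of each genotype in the Lgr5+ sort independent biological replicates. The labels only number them and tie none to an animal, so p-values measure the spread between these libraries. Scrublet (scanpy 1.11.5) marked doublets at 0.8% per 1000 barcodes, and none was removed except in an alternative. Features were named by a fixed rule: all that passed (up to 10 in each direction), filled to 5 with the smallest p, up to 5 from each interaction, and 15 with the largest ratio to other barcodes. Alternatives changed 1 choice at a time, except that the upper limits on UMIs and genes were lifted together. Total RNA, H3K9me3 and scATAC samples were not used here.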

Additional observations from a re-analysis of the deposited data

Results flagged for a closer look

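For 10 genes the effect of genotype differed between groups by a test of the difference itself (edgeR interaction over summed UMIs). Between Paneth and other barcodes of the Lgr5+ sort, the difference of the log2 fold changes (Setdb1-KO minus WT) was 1.63 for Reg3b, -1.42 for Reg4, -1.37 for Sct (secretin), 1.18 for Reg3g and 3.17 for Tesc. Sct had 210 and 273 CPM in WT and 207 and 134 CPM in Setdb1-KO Paneth barcodes, with 127 and 124 against 359 and 229 CPM in the others. Reg3g had 322 and 527 CPM in WT and 326 and 276 CPM in Setdb1-KO Paneth barcodes, with 566 and 763 against 166 and 394 CPM in the others. Tesc had 2 and 3 UMIs in the WT and 3 and 66 UMIs in the Setdb1-KO Paneth barcodes. Without Setdb1-KO replicate 2 the difference for Tesc was 0.78 (adjusted p = 1.00, edgeR). Without WT replicate 1 or 2 the adjusted p was 1.00 for Sct and Reg3g, and 0.832 and 1.00 for Tesc (edgeR). At a defensin share of at least 20% Reg4, Sct and Reg3g lost their calls (adjusted p = 0.518, 1.00 and 0.551, edgeR), and with the upper limits lifted Reg4, Reg3g and Tesc did (0.746, 0.641 and 0.624). Tesc also missed without the filter on low counts and at 2000 or more UMIs (0.0796 and 0.113). The part of the cell mixture of the other barcodes in these differences was not tested.

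Between the Paneth barcodes of the Lgr5+ and the lineage-traced sort, 68 of 6648 features differed (1.02%). The 5 with the smallest adjusted p were Rbp2 (4.95), Apoc3 (7.63), Apoa1 (5.10), Gsta1 (5.96) and S100g (5.09), where the values are differences of log2 fold changes. These are genes known from enterocytes. In the traced sort Rbp2 had 353 and 862 CPM in WT and 78.3 and 225 CPM in Setdb1-KO Paneth barcodes, and its empty droplets held 1005 and 1338 CPM in WT and 389 and 369 CPM in Setdb1-KO. Without Setdb1-KO replicate 2 of the Lgr5+ sort, Apoc3 was at 6.57 (adjusted p = 0.127, edgeR) and S100g at 3.43 (adjusted p = 0.920). Without its WT replicate 2 they were at 11.04 and 7.34, both still past the threshold, and Gsta1 was at 4.04 without its Setdb1-KO replicate 1 (adjusted p = 0.0341, edgeR). Gsta1 lost its call at a defensin share of at least 20% (3.60, adjusted p = 0.104, edgeR), and Apoa1 with the upper limits lifted (adjusted p = 0.0636). In the Lgr5+ sort Apoc3 had 0 to 25 UMIs per library. The part of free RNA in these differences was not tested.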

How the results depend on the processing

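The number of genes that passed between Setdb1-KO and WT Paneth barcodes (9) became 23 with a replicate block, 2 with DESeq2, 19 without a filter on low counts, 21 at a defensin share of at least 5%, 15 at 10 or more Lyz1 UMIs, 15 at 2000 or more UMIs, 16 at up to 10000 UMIs, 5 without barcodes of high Scrublet score and, chosen after seeing the data, 2 at a defensin share of at least 40% and 146 of 8302 features (1.76%) without upper limits. Leaving out 1 library each gave 7 to 45 (without Setdb1-KO replicate 1 the count was 45, without Setdb1-KO replicate 2 it was 33), where the lone library of a group is assumed to vary like the other group. The replicate block rests on a shared number only, since same-numbered libraries hardly deviated together (correlation of their deviations 0.067). With the block Clps (log2 fold change 1.14, adjusted p = 1.6e-07, edgeR) and Mmp7 (-0.67, 0.0254) also passed. So did Kit and Cd74, which were lower, and Fabp2, which was higher. The 5 interactions with the other barcodes became 3 at a defensin share of at least 20% and 67 without upper limits, and 1 to 26 when a library was left out (1 without either WT library, 26 without Setdb1-KO replicate 1 and 13 without Setdb1-KO replicate 2). The 68 interactions with the traced sort became 117 without upper limits and 16 to 98 when a library was left out (98 without the first traced WT library, 79 without Setdb1-KO replicate 1, 39 without WT replicate 1, 31 without WT replicate 2, 16 without Setdb1-KO replicate 2 and 43 without the first traced Setdb1-KO library). The difference of mean log2 shares between genotypes was 0.32, was -0.02 at up to 10000 UMIs, and ranged from -0.21 (without Setdb1-KO replicate 2) to 0.85 (without Setdb1-KO replicate 1) when a library was left out. Setdb1 differed by -2.74 CPM, by -8.32 CPM at up to 10000 UMIs, and by -4.99 to -0.49 CPM when a library was left out. The 9 genes that passed, Hist1h2bc and Shisa5 kept their direction in 187 recomputed values, of which 38 lost and 17 gained the call. Among genes that did not pass, AY761184, Itln1, Ang4, Bhlha15 (0.10 to -0.18) and Cbx3 (0.12 to -0.04) changed sign on the log2 scale without upper limits. The causes were not tested. Depth limits the niche signals, the necroptosis genes and Setdb1, with few UMIs per library.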
